A study of Mus musculus with 4 samples.

Results

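The aged sham and the young sham library, 2 of the 4 libraries of the series, were compared to describe the left ventricle of old mice without ischemia. All mice were male wild-type C57BL/6J. The young mice were 3 to 5 months and the aged mice 24 to 26 months old, and the other libraries, young I/R and aged I/R, came from hearts in which ischemia had lasted 45 min and reperfusion 24 h. The sham mice went through the operation without ischemia according to the study's methods, whereas the sample labels call their tissue healthy and unaltered. The labels also give nuclear RNA as the molecule where the methods describe a cell suspension, and how many mice went into each library is not given in the sources used here. Each condition was 1 droplet library on the 10× Chromium system, so no difference has a replicate and no test was made. A difference between aged and young cannot be told apart from one between animals or preparations.

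The heart contracts through sarcomeres, in which the motor myosin occurs as a fast α form (Myh6) and a slow β form (Myh7). The adult mouse ventricle uses almost only the α form, and a return of the β form, of natriuretic peptides and of stretch-responsive genes is known as the fetal gene programme. Ageing of the heart is known for fibrosis, low-grade inflammation and changes of mitochondria and protein quality control, and resident macrophages, fibroblasts and endothelial cells make up much of the tissue beside the cardiomyocytes.

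Unique molecular identifiers (UMIs, each a counted RNA molecule) of a gene were summed over all deposited barcodes of a library and scaled to CPM, the UMIs of the gene in 1000000 UMIs of the library. The young sham library held 25836175 UMIs in 92200 barcodes with a median of 244 UMIs per barcode, and the aged sham library held 41356670 UMIs in 100342 barcodes with a median of 391. Whether each deposited barcode held a cell or some were empty droplets is not given in the sources used here and was not tested. The variance of Myh6 UMIs over barcodes was 1.20 (young sham) and 1.08 (aged sham) times that expected from depth alone. For the noncoding RNA Malat1 it was 17.0 and 11.3 times. Barcodes grouped by markers below are not taken as cells of a type. The I/R libraries held 39673199 (young) and 66767829 (aged) UMIs. The sham libraries shared 2498 barcodes, 2.71% of the young and 2.49% of the aged ones, and every other pair of libraries shared between 2366 and 2843. All 18 cardiomyocyte markers were detected in both sham libraries, with a sum of 110860 CPM in young and 105500 CPM in aged sham. In both, the summed level was 1683 and 2163 CPM for 18 fibroblast markers, 2634 and 3078 CPM for 19 endothelial markers and 451 and 686 CPM for 21 macrophage markers (young and aged). In sums of this kind, fewer cells of a type and less RNA per cell cannot be told apart. The share of UMIs from Malat1, a noncoding RNA held in the nucleus, was 7.34% in young and 2.88% in aged sham, and that of the 13 protein genes of the mitochondrial genome was 10.0% and 15.6%. In the I/R libraries both shares lay the other way round, with 2.22% in young and 4.33% in aged I/R for Malat1 and 14.1% and 9.98% for the mitochondrial genome.

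Of 32285 genes, 12901 had 100 or more UMIs over the sham libraries, and for these the log2 ratio of aged over young CPM was taken relative to the median gene, which lay at −0.14 on the scale of total UMIs. All ratios below are relative log2 ratios of aged over young on this scale, with a 95% interval from the exact conditional distribution of the UMIs where one is given. The I/R pair was centred in the same way on its own median gene, which lay at 0.43 by total UMIs. The intervals cover counting error only, and their width to either side had a median of 0.175. The relative ratios had an SD of 0.54, with a 5th percentile of −0.83 and a 95th of 0.78. By at least 1.5-fold, 1275 genes (9.88%) were higher and 1392 (10.8%) were lower in aged sham. The counting interval of each of them lay on 1 side of 0, which the limits of 100 UMIs and 1.5-fold largely fix beforehand. By 2-fold, 314 genes were higher and 379 lower. Scaling by total UMIs in place of the median gene gave 789 higher and 2179 lower genes. Because the share of Malat1 differed, the ratios were also taken in barcodes with 3 to 6% of their UMIs from Malat1, 41337 in young and 22606 in aged sham. Their depth was not matched, with medians of 224 UMIs in young and 447 in aged sham, and its part in the values was not tested. In these barcodes 613 of 10565 genes were higher and 387 lower, against 887 and 962 of the same genes in all barcodes. Of 55 gene groups with 5 or more genes in both, 17 had a median of the opposite sign there, and in 10 of the 49 with a higher gene in all barcodes none remained higher. Counts for gene groups below use the 1.5-fold limit and can be read against 9.88% and 10.8% in sham. Those in the I/R pair can be read against 16.4% higher and 14.0% lower. Counts among barcodes with 3 to 6% Malat1 can be read against 5.80% higher and 3.66% lower. Of 12811 genes measured in both pairs, 210 were higher in both and 28 lower in both. Every group was put together by hand with earlier results of these data known.

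**Figure D1:**
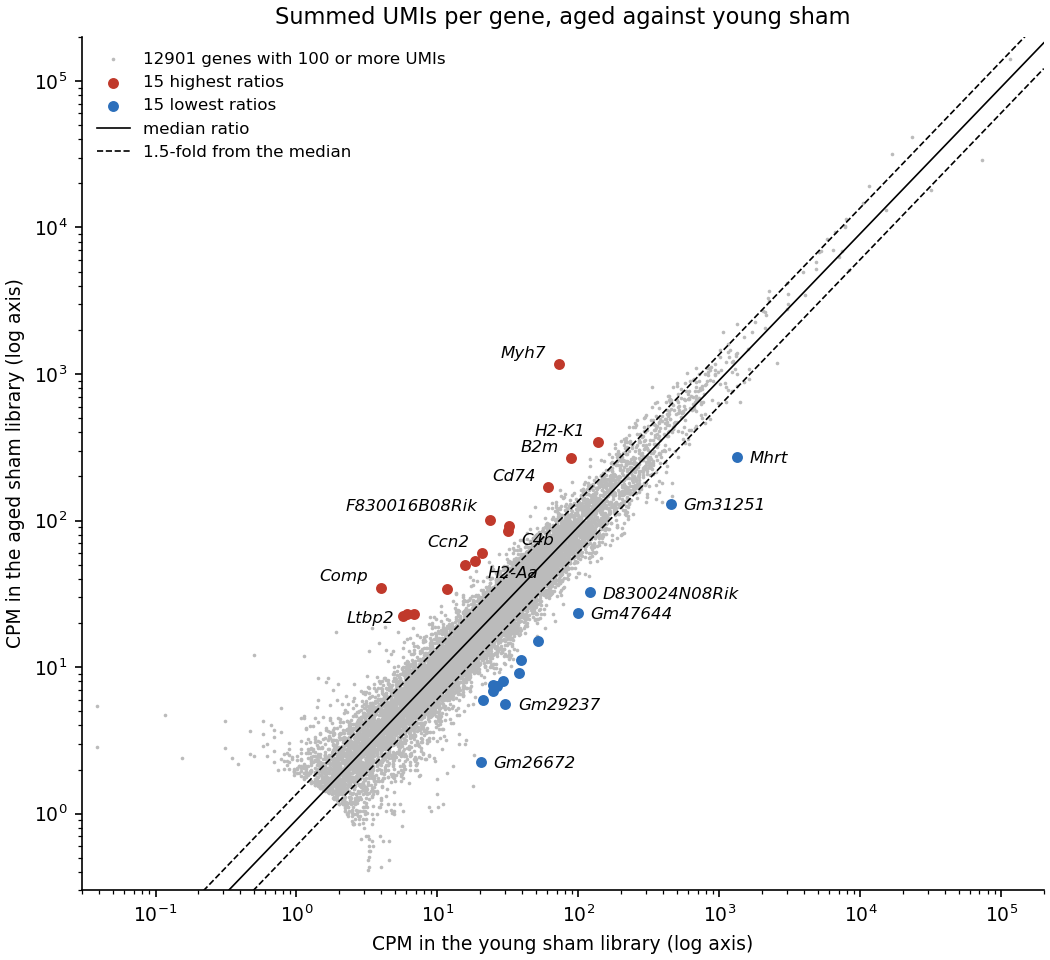
Each point is 1 of the 12901 genes with 100 or more UMIs over the sham libraries, with its CPM in the young sham (x) and in the aged sham library (y), both on log axes. The solid line is the median ratio and the dashed lines lie 1.5-fold from it. Red and blue points are the 15 highest and 15 lowest ratios among genes with 20 CPM or more in 1 of the libraries. Of these, Myh7 (4.16) and Gm26672 (−3.03) stand farthest from the line on either side.

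The 15 genes at each end of the ranking were taken among those with at least 20 CPM in either library. The 15 with the highest ratios in aged sham were led by the slow myosin Myh7 and the cartilage oligomeric matrix protein Comp. At least 9 of the other 13 belong to antigen presentation, the interferon response or complement. The 15 with the lowest ratios held 12 genes annotated as noncoding, 10 of them antisense to or inside introns of other genes, together with Myo5c, Egf and Leng9. The plot of the leading genes shows their CPM in all 4 libraries.

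**Figure D2:**
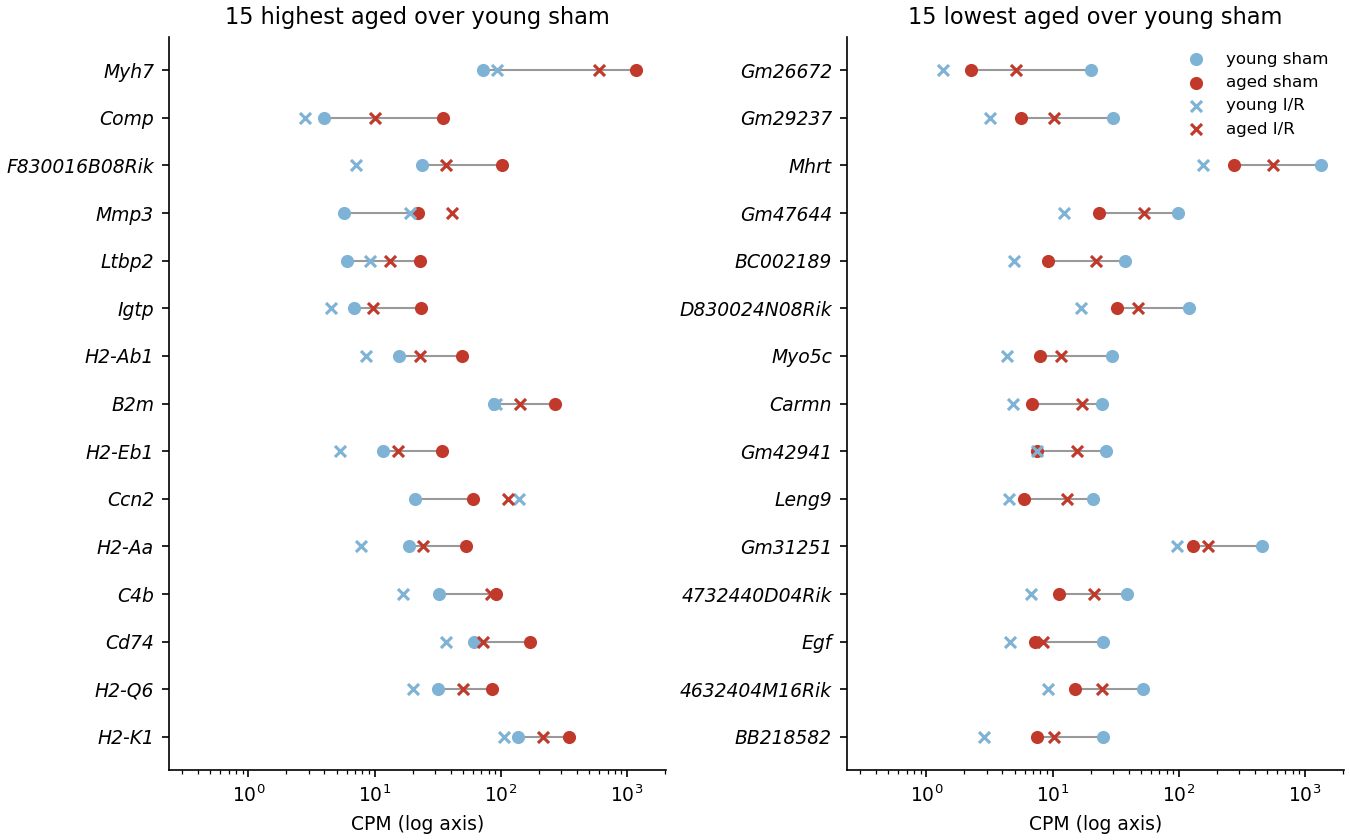
CPM (log axis) of the 15 genes with the highest (left) and the 15 with the lowest (right) aged over young sham ratio, with circles for sham and crosses for I/R libraries, blue for young and red for aged, and a line joining the sham libraries. In the left panel the aged cross lies right of the young cross for all genes but Ccn2, whereas in the right panel, where the aged circle lies left of the young one, the aged cross lies right of the young cross for all 15. These CPM are not relative to the median gene, whose log2 ratio by total UMIs was 0.43 in the I/R pair. Relative to it, Ltbp2 (0.08), B2m (0.21) and Cd74 (0.54) of the left panel were within 1.5-fold there. So were Gm31251 (0.40) and Egf (0.44) of the right panel.

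Myh7 had the highest ratio of these genes. It was counted at 72.3 CPM in young sham and 1174 CPM in aged sham, a relative ratio of 4.16 (4.09 to 4.23), or 17.9-fold. In the I/R libraries it had 93.9 CPM in young and 594 CPM in aged, a ratio of 2.24. Both aged libraries therefore lay above both young libraries. The fast myosin Myh6, the neighbouring gene on the same strand, had 15323 CPM in young and 13165 CPM in aged sham, a ratio of −0.08. Of the UMIs of both myosins, Myh7 took 0.470% (exact binomial interval 0.449 to 0.492) in young sham, 0.682% (0.660 to 0.704) in young I/R, 8.19% (8.12 to 8.26) in aged sham and 2.59% (2.56 to 2.61) in aged I/R. The β form was the smaller share of the myosin UMIs in all 4 libraries.

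The region of Myh7 also held 2 of the 15 genes with the lowest ratios. Myh7 lies on chromosome 14 at 54970684 to 54994626 (minus strand, GRCm38), and Mhrt, a noncoding RNA of cardiomyocytes antisense to it, at 54968678 to 54974349. Mhrt had 1343 CPM in young and 273 CPM in aged sham, a ratio of −2.16 (−2.19 to −2.13), and 156 and 556 CPM in young and aged I/R, a ratio of 1.40. A further antisense gene inside Myh7, Gm31251 (54979393 to 54991601), had 454 and 129 CPM, a ratio of −1.67 (I/R 0.40). In sham the antisense RNAs were low where Myh7 was high, and in I/R Mhrt and Myh7 were both higher in the aged library. Whether reads were assigned by strand is not given in the sources used here, and the values of genes that overlap on opposite strands are uncertain.

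Myh7 belongs to a group of 21 measured genes of the fetal and stretch programme, of which 8 were higher and 0 lower, with a median ratio of 0.40. Natriuretic peptide A (Nppa), a hormone of the stretched heart that is high in the atria, had 335 and 821 CPM in young and aged sham (1.43, 1.40 to 1.47). Its partner Nppb had 49.3 and 124 CPM (1.47). Connective tissue growth factor Ccn2 had 20.8 and 60.0 CPM (1.67), the calcineurin inhibitor Rcan1 34.9 and 70.4 CPM (1.15) and the stretch sensor Ankrd1 1059 and 1936 CPM (1.01). These stress-responsive genes were higher in aged sham together with Mybpc2 (9.79 and 16.3 CPM, 0.87) and Fhl1 (42.3 and 60.6 CPM, 0.66). Skeletal α-actin Acta1, another classical member, had 241 and 206 CPM (−0.09). In the I/R pair young I/R had 1055 CPM of Nppa, 205 CPM of Nppb and 432 CPM of Acta1. There 16 of 22 genes of the group were lower in the aged library (background 14.0%), 1 (Myh7) was higher, and the median was −0.90. Of 9 measured atrial markers 2 were higher and 0 lower (median 0.08), namely Nppa and the secreted Wnt modulator Dkk3 (5.65 and 11.7 CPM, 1.19), while the atrial light chains Myl4 and Myl7 had ratios of −0.18 and 0.08.

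Genes of the contractile apparatus were mostly within 1.5-fold. Of 35 genes of the sarcomere and Z-disc 5 were higher and 2 lower, with a median of 0.14. Myotilin (Myot), a Z-disc protein, had 27.4 and 59.4 CPM in young and aged sham (1.25, 1.13 to 1.37), the M-band protein Myom2 230 and 436 CPM (1.06), and Synpo2l 74.7 and 126 CPM (0.89). The titin cap Tcap had 1338 and 2202 CPM (0.86) and the ventricular light chain Myl2 6619 and 9373 CPM (0.64). Titin (Ttn), the giant spring of the sarcomere, was lower, with 31744 CPM in young and 18041 CPM in aged sham (−0.68), and so was the thin filament gene Lmod2 (315 and 172 CPM, −0.74). Ttn had the reverse order in I/R, with 18615 CPM in young and 34439 CPM in aged, but its ratio of 0.46 there was within 1.5-fold. Of the 18 cardiomyocyte markers 2 were higher (Myl2 and the fatty acid carrier Fabp3, 2263 and 3151 CPM) and 2 lower (Ttn and Ryr2), with a median of 0.31.

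Calcium handling and excitation genes were mostly within 1.5-fold. Of 20 genes of sarcoplasmic reticulum calcium cycling 0 were higher and 2 lower (median 0.09). The calcium release channel Ryr2 had 2568 and 1180 CPM in young and aged sham (−0.98, −1.001 to −0.967) and the mitochondrial uniporter Mcu 17.9 and 9.79 CPM (−0.73). The calcium pump Atp2a2 had a ratio of 0.53 and its regulator phospholamban (Pln) of 0.09. Of 26 ion channel genes 4 were higher and 4 lower (median −0.20). The potassium channels Kcna5 (0.80) and Kcnq1 (14.4 and 22.3 CPM, 0.76) were higher, while the inward rectifier Kcnj12 (−0.73) and the calcium channel subunit Cacnb2 (144 and 79.0 CPM, −0.73) were lower. Of 24 genes of adrenergic and cyclic AMP signalling 2 were higher and 2 lower (median 0.0029), with the kinase subunit Prkar1a at 0.92 (181 and 311 CPM) and the α1 receptor Adra1a at −0.81.

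Transcription factors of the cardiomyocyte lay on the low side. Of 23 measured, 0 were higher and 5 lower, and 3 lay above the median gene, with a median ratio of −0.33. Ppara, the receptor that drives fatty acid oxidation genes, had 42.8 and 19.4 CPM in young and aged sham (−1.003, −1.14 to −0.87), and the coactivator Ppargc1b had 97.3 and 52.2 CPM (−0.76). Zfpm2 (−0.65), Myocd (−0.63) and Srf (−0.63) were also lower, 3 of 23 being lower among barcodes with 3 to 6% Malat1, while Nkx2-5 had 43.8 and 49.3 CPM (0.31) and Gata4 39.0 and 29.96 CPM (−0.24). In the I/R pair the median of the group was 0.25.

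Genes of energy metabolism were mostly within 1.5-fold, apart from some targets of Ppara and the mitochondrial genome. Of 20 PPAR alpha targets 2 were higher and 3 lower (median −0.12). Pyruvate dehydrogenase kinase 4 (Pdk4), which holds back glucose oxidation, had 76.3 and 39.1 CPM in young and aged sham (−0.83), the lipase inhibitor Angptl4 11.03 and 5.59 CPM (−0.84) and the uncoupling protein Ucp3 24.0 and 10.3 CPM (−1.08). The same 3 genes were lower in aged I/R, where Pdk4 had 533 CPM in young and 35.2 CPM in aged (−4.35), Angptl4 61.4 and 5.09 CPM (−4.02) and Ucp3 20.4 and 3.82 CPM (−2.84), and 18 of the 20 targets were lower there (background 14.0%). Of 26 genes of fatty acid uptake and beta-oxidation 2 were higher, the transporter Cd36 (615 and 891 CPM, 0.67) and Fabp3 (0.62), and 0 were lower (median 0.02). Of these 26 genes 0 were higher and 2 lower among barcodes with 3 to 6% Malat1, with a median of −0.15. Of 30 genes of glycolysis and pyruvate use 1 was higher and 4 lower (median 0.27). Hexokinase 2 (Hk2), the insulin-sensitive first enzyme, had 354 and 141 CPM (−1.19) and the regulator Pfkfb2 73.3 and 40.7 CPM (−0.71), against a ratio of 0.60 for Hk1.

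Of 20 citric acid cycle genes 1 was higher, the mitochondrial isocitrate dehydrogenase Idh2 (685 and 1096 CPM, 0.82), and 0 lower (median 0.09). The 78 nuclear genes of the respiratory chain had 3 higher and 0 lower, and 72 of the 78 lay above the median gene (median 0.27), with Cox4i1 at 2206 and 3284 CPM (0.71). Of these 78 genes 0 were higher and 1 was lower among barcodes with 3 to 6% Malat1, with a median of −0.17. The mitochondrial genome stood out more, with 7 of 13 genes higher, 0 lower and a median of 0.63. Its cytochrome oxidase genes mt-Co3 (16808 and 31884 CPM, 1.06) and mt-Co1 (23095 and 41377 CPM, 0.98) had the largest ratios. In I/R the same 13 genes had a median of −0.74 and the respiratory chain of −0.84. Of 16 genes of creatine kinase and ATP transfer 1 was higher (Ckb, 0.60) and 0 lower (median 0.20), of 20 genes of ketone and branched-chain amino acid use 2 were higher (Bdh1 0.69, Slc16a1 0.60) and 0 lower (median 0.17), and of 32 genes of lipid and cholesterol metabolism 3 were higher (Scd1 1.05, Lpl 0.60, Fasn 0.59) and 0 lower (median 0.23). Of 17 genes of sirtuins and NAD metabolism 0 were higher and 4 lower (median −0.17): the mitochondrial sirtuins Sirt3 (57.2 and 32.0 CPM, −0.70) and Sirt4 (−0.98), the NAD synthase Nmnat1 (−0.89) and the transhydrogenase Nnt (48.8 and 25.3 CPM, −0.81). A further entry named Nnt was at 0 UMIs in all 4 libraries. Sirt1 had 17.6 and 14.9 CPM, and its interval (−0.28 to 0.08) included 0.

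Genes of antigen presentation had the highest medians of all lists with 5 or more measured genes. Class I molecules display peptides of the cell's own proteins, and class II molecules, found mainly on macrophages, dendritic cells and B cells, display those taken up from outside. Of 10 measured genes of MHC class II 8 were higher and 0 lower, with a median ratio of 1.25, and of 18 genes of MHC class I 11 were higher and 0 lower, with a median of 0.85. The class II chains H2-Ab1 (15.6 and 49.6 CPM in young and aged sham, 1.80, 1.65 to 1.96), H2-Eb1 (11.7 and 33.9 CPM, 1.68) and H2-Aa (18.6 and 52.9 CPM, 1.65) and the invariant chain Cd74 (60.8 and 170 CPM, 1.62) were all among the leading genes. Of class I, the light chain B2m had 88.9 and 267 CPM (1.72, 1.66 to 1.79) and the heavy chain H2-K1 137 and 344 CPM (1.47). H2-Q6 (31.5 and 84.4 CPM, 1.56) and H2-Q7 (17.1 and 41.3 CPM, 1.41) are near-identical copies, so the counting may split their reads unevenly. The transactivator Nlrc5 (1.17) and the peptide transporter Tap1 (1.16) were higher as well. In the I/R pair 7 of 10 class II and 13 of 19 class I genes were higher in the aged library (background 16.4%), with medians of 0.98 and 0.84, and 5 and 9 genes were higher in both pairs. B2m (0.21) and Cd74 (0.54) were within 1.5-fold in the I/R pair. Among barcodes with 3 to 6% Malat1, 5 of 7 class II and 9 of 17 class I genes were higher. Of the same genes 6 and 10 were higher in all barcodes.

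Interferon-induced genes formed a further group. Of 45 measured, 26 were higher and 0 lower, with a median ratio of 0.68, and 32 of 45 were higher in aged I/R (background 16.4%). Among barcodes with 3 to 6% Malat1 it was 16 of 41, against 23 of the same 41 in all barcodes. Interferons act through factors of the STAT and IRF families, which read a promoter element of repeated GAAA blocks, the interferon-stimulated response element (ISRE). The 250 bases before the start site were searched on both strands for GAAANNGAAA in 27025 RefSeq genes, and 3.46% held it. It was present in 3.10% of the 9963 genes with a promoter among those measured in sham, in 5.50% of the 945 higher genes, in 2.35% of the 938 lower genes and in 17 (53.1%) of the 32 interferon-induced genes with a promoter. A match is a description of the sequence and not a site shown to be used. Below are the matching stretches of the 5 interferon-induced or class I genes with the highest ratios among those that match, read 5′ to 3′ on the strand of the gene, with the match in capitals (GAAANNGAAA or its reverse complement).
Ifit3b: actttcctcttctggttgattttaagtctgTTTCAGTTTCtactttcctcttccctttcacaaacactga
Igtp: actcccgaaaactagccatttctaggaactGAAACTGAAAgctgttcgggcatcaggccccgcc
B2m: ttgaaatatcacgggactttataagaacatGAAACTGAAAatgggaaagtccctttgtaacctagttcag
Ifit3: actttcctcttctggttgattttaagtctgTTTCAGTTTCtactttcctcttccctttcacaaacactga
Bst2: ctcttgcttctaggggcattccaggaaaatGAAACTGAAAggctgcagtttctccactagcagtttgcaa
They come from RefSeq GRCm38.p6, at chr19:34607773-34607842 (plus strand) for Ifit3b, chr11:58199492-58199555 (plus strand) for Igtp, chr2:122147518-122147587 (plus strand) for B2m, chr19:34583377-34583446 (plus strand) for Ifit3 and chr8:71537557-71537626 (minus strand) for Bst2. The stretches of Ifit3 and Ifit3b are the same in all 70 bases, and their counts, as those of near-identical copies, are uncertain.

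These 5 genes were chosen for their high ratios. Of the 17 interferon-induced genes with a match 10 were higher in aged sham, and of 3 such class I genes 1 was. The RNA-binding antiviral proteins Ifit3b and Ifit3 had 1.08 and 4.50 CPM (2.19, 1.61 to 2.82) and 5.65 and 13.6 CPM (1.40, 1.14 to 1.67) in young and aged sham. Igtp, a GTPase that guards against intracellular pathogens, had 6.85 and 23.1 CPM (1.89, 1.66 to 2.13) and overlaps Irgm2 on the same strand. The virus tether Bst2 had 17.8 and 39.0 CPM (1.27). Of other members, the nucleic acid sensor Zbp1 had 1.94 and 5.95 CPM (1.76) and the GTPase Ifi47 3.29 and 7.25 CPM (1.28). The interferon regulator Irf7 had 9.75 and 21.2 CPM (1.25). In I/R the ratios were 0.82 for Ifit3b, 0.69 for Igtp, 0.21 for B2m, 1.18 for Ifit3 and 0.09 for Bst2. Of the 45 interferon-induced genes 15 were higher in both pairs.

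Complement, a set of plasma proteins that tags cells for removal, was higher for 8 of 18 measured genes and lower for 0, with a median of 0.52. The alternative pathway factor Cfb had 1.66 and 8.46 CPM in young and aged sham (2.48, 2.02 to 2.98) and 1.26 and 9.78 CPM in young and aged I/R (2.53). C4b had 32.1 and 91.5 CPM in sham (1.65) and 16.8 and 84.2 CPM in I/R (1.90), and C3 108 and 165 CPM (0.76) and 49.3 and 201 CPM (1.60). The C1q chains C1qa and C1qb, made by macrophages, had ratios of 0.77 each in sham. Of the 18 genes 4 were higher in both pairs. Among sham barcodes with 3 to 6% Malat1 4 of 16 were higher, against 7 of the same 16 in all barcodes.

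Of 35 chemokines, interleukins and their receptors 18 were higher and 2 lower, with a median of 0.59. The monocyte attractant Ccl8 had 1.90 and 17.3 CPM in young and aged sham (3.32, 2.91 to 3.77) and 1.61 and 9.94 CPM in I/R (2.20). Ccl5, an attractant made by T cells, had 0.464 and 2.56 CPM (2.602, 1.74 to 3.599) and the alarmin Il33 1.74 and 5.54 CPM (1.81). Ccl19 (1.18), Cxcl14 (1.15) and the receptor Ccr2 of recruited monocytes (8.36 and 16.2 CPM, 1.10) were higher too, and Ackr4 (−0.87) and Il6ra (−0.80) were lower. Of 12 acute phase and secreted genes 7 were higher and 0 lower (median 0.65), with the protease inhibitors Timp1 (3.41 and 18.5 CPM, 2.58) and Serpina3n (5.26 and 17.3 CPM, 1.85), haptoglobin (Hp, 1.43 and 5.95 CPM, 2.19) and Apod (6.66 and 18.5 CPM, 1.61).

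Markers of immune cells were also counted, and their lists share genes with the groups above. Cd74 (1.62), C1qa and C1qb are among the macrophage markers, and Ccl5 is among the T and NK cell markers. Of 21 macrophage markers 14 were higher and 0 lower (median 0.66), among them Fcer1g (6.08 and 15.7 CPM, 1.504), Aif1 (1.12), Ctss (9.68 and 18.7 CPM, 1.09) and Tyrobp (0.92). The macrophage receptors Mrc1, Csf1r and Folr2 had ratios of −0.04, 0.19 and 0.55. Of the 21 markers none was at 0 in either library. Among barcodes with 3 to 6% Malat1 4 of 18 were higher, against 12 of the same 18 in all barcodes. Of 4 measured neutrophil markers (of 12 listed) 2 were higher, S100a9 (3.87 and 7.98 CPM, 1.18) and S100a8 (3.64 and 6.99 CPM, 1.08), and 0 lower (median 0.81). Of 10 B and plasma cell markers 3 were higher and 2 lower (median 0.31): the antibody chains Ighg2c (1.63 and 7.91 CPM, 2.42) and Igkc (1.82 and 7.04 CPM, 2.09) and the receptor chain Cd79b (0.92) were higher, and Bank1 (−0.63) and Mzb1 (−0.65) lower. In I/R Ighg2c (1.13 and 7.49 CPM, 2.30) and Igkc (1.62) were again higher in the aged library. Of 15 T and NK cell markers 2 had enough UMIs, of which Ccl5 was higher (median 1.52). The summed level was 17.7 and 28.1 CPM for the neutrophil markers, of which Ly6g was at 0 in young sham, 10.1 and 20.4 CPM for the T and NK cell markers and 194 and 163 CPM for the B and plasma cell markers in young and aged sham. The part of these cells in the class II and interferon values was not tested.

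Of 39 matricellular and matrix genes 16 were higher and 1 lower, with a median of 0.44. Of 22 collagens 3 were higher and 1 lower, with a median of 0.13. The difference between these lists was not tested. Comp had 3.95 and 34.9 CPM in young and aged sham (3.28, 2.99 to 3.59) and 2.80 and 10.1 CPM in young and aged I/R (1.43). Ltbp2, which binds elastic fibres, had 6.04 and 22.9 CPM (2.06), fibromodulin (Fmod) 1.08 and 3.14 CPM (1.67) and thrombospondin 1 (Thbs1) 4.64 and 12.2 CPM (1.53). Periostin (Postn), a protein of activated fibroblasts, had 45.6 and 108 CPM (1.38, 1.29 to 1.48) and the laminin chain Lama2 129 and 70.5 CPM (−0.73). The fibrillar collagens had values near the median gene, 44.2 and 44.4 CPM for Col1a1 (0.14) and 134 and 130 CPM for Col3a1 (0.09), and the higher ones were Col12a1 (1.28 and 2.80 CPM, 1.27), Col16a1 (0.65) and Col14a1 (0.64) against Col6a6 (−0.84). Among barcodes with 3 to 6% Malat1, 14 of 37 matricellular genes and 6 of 21 collagens were higher, and both medians were 0.34. Of the same genes 14 and 2 were higher in all barcodes. Among barcodes with 3 or more UMIs of fibroblast markers the median was −0.08 for the matricellular and matrix genes and −0.20 for the collagens. These were 2003 barcodes in young and 7567 in aged sham, with medians of 341 and 502 UMIs, and the part of this difference was not tested.

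Of 17 matrix proteases and inhibitors 5 were higher and 0 lower (median 0.26), led by Timp1, the stromelysin Mmp3 (5.73 and 22.2 CPM, 2.09, 1.84 to 2.35) and the protease inhibitor Serpine2 (18.8 and 45.3 CPM, 1.41). Of 30 genes of TGF beta and BMP signalling 8 were higher and 1 lower (median 0.40), with the stress hormone Gdf15 (1.08 and 2.76 CPM, 1.48), Id2 (1.10) and Inhbb (1.09) above and the inhibitor Smad7 (60.4 and 36.3 CPM, −0.59) below. In barcodes rich in cardiomyocyte markers Smad7 had a ratio of 0.07. Of 36 genes of integrins, focal adhesion and the dystrophin complex 3 were higher and 4 lower (median 0.01), with δ-sarcoglycan (Sgcd) at 53.6 and 21.5 CPM (−1.18). Of the 18 fibroblast markers 4 were higher and 0 lower (median 0.28): the proteoglycans Lum (30.7 and 59.3 CPM, 1.09) and Dcn (0.62), Gsn (0.74) and Mfap5 (0.63). The fibroblast receptor Pdgfra had 35.8 and 32.0 CPM (−0.03).

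Vessel genes were mostly within 1.5-fold. Of 31 genes of VEGF, angiopoietin and Notch signalling 1 was higher and 2 lower (median 0.01), and Vegfa, the main growth factor of vessels, had 512 and 270 CPM in young and aged sham (−0.79, −0.82 to −0.75). Adrenomedullin (Adm, 6.66 and 12.2 CPM) had a ratio of 1.01 and Heyl of −0.69. Of 19 endothelial markers 4 were higher and 0 lower (median 0.34), with Ly6c1 (72.7 and 122 CPM, 0.89), Esam (0.73), Cd36 (0.67) and Cldn5 (0.63). Among barcodes with 3 to 6% Malat1 0 of the 19 were higher and 1 was lower, with a median of 0.03. Of 9 endocardial and lymphatic endothelial markers 2 were higher and 0 lower (median 0.15), of 14 pericyte and smooth muscle markers 2 were higher (Higd1b 0.87, Cnn1 0.82) and 0 lower (median 0.27), and of 7 Schwann and neuronal markers 1 was higher (Cnp 0.82) and 1 lower (Kcna1 −0.80; median 0.47). Mesothelial and epicardial markers had 2 measured genes, of which Muc16 was lower (4.30 and 1.04 CPM, −1.91; median −0.99). Adipocyte and mast cell markers had 1 measured gene each, at 0.46 and −0.27. Of 7 red cell genes 0 were higher and 1 was lower, the globin Hbb-bt (210 and 96.1 CPM, −0.99), with a median of −0.43. Of the 4 Y-linked genes, counted as a check of the male mice, 2 were lower (Uty −0.59, Kdm5d −0.67) and all 4 were detected in both libraries.

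Genes of degradation and stress were higher in part. Of 30 genes of the lysosome and autophagy 16 were higher and 0 lower (median 0.62). Gpnmb, a glycoprotein of loaded lysosomes, had 0.658 and 4.01 CPM in young and aged sham (2.75, 2.02 to 3.56), Cd63 60.6 and 122 CPM (1.15), and the cathepsins Ctsz (1.05) and Ctsb (152 and 254 CPM, 0.88) followed. Of 24 genes of S100 proteins, annexins and injury 16 were higher and 0 lower (median 0.70), led by galectin 3 (Lgals3, 4.22 and 18.8 CPM, 2.29), a lectin of macrophages and scar, S100a4 (7.199 and 16.5 CPM, 1.33) and S100a6 (75.4 and 148 CPM, 1.11). In I/R these medians were −0.51 for the lysosome and −0.69 for the S100 group. Of 24 genes of the unfolded protein and ATF4 response 11 were higher and 0 lower (median 0.52), with Gdf15, the asparagine synthetase Asns (1.27), the disulphide isomerase Pdia3 (60.2 and 96.8 CPM, 0.82) and Trib3 (0.80). Among barcodes with 3 to 6% Malat1 0 of 17 were higher, against 6 of the same 17 in all barcodes. Of 24 heat shock and chaperone genes 0 were higher and 1 was lower, Hsph1 (62.6 and 31.3 CPM, −0.86; median 0.20). Of 36 proteasome genes 3 were higher, of which Psmb8 (17.0 and 29.6 CPM, 0.94) and Psmb10 (0.91) are subunits of the immunoproteasome, and 0 were lower (median 0.22).

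Of 29 antioxidant genes and NRF2 targets 7 were higher and 0 lower (median 0.35), with the plasma glutathione peroxidase Gpx3 (120 and 262 CPM, 1.26), Nqo1 (21.2 and 38.8 CPM, 1.01) and Gstm1 (0.87). Of 15 iron genes 2 were higher (ferritin Fth1, 1009 and 1460 CPM, 0.67, and Lcn2, 0.60) and 1 lower (Steap3 −0.81; median 0.20), and of 15 metallothionein and zinc genes 3 were higher, led by Slc30a4 (1.02), and 0 lower (median 0.09). Of 32 p53 targets and senescence genes 6 were higher and 1 lower (median 0.20). The cell cycle inhibitor p21 (Cdkn1a) had 15.9 and 25.3 CPM in young and aged sham (0.81, 0.64 to 0.97), Phlda3 8.09 and 15.5 CPM (1.08) and Igfbp3 3.44 and 6.36 CPM (1.02), while Cdkn1c had 22.99 and 13.9 CPM (−0.59). The senescence gene Cdkn2a was below the limit of 100 UMIs, with 4 UMIs in young and 19 in aged sham. Of 25 cell cycle and DNA replication genes 8 were higher and 1 lower (median 0.27), among them E2f1 (1.24 and 2.61 CPM, 1.21), Mcm5 (1.19) and Ccnd1 (66.4 and 106 CPM, 0.81) against Cenpa (−0.73). Of 18 measured among barcodes with 3 to 6% Malat1, 0 were higher and 1 was lower, against 5 and 1 of the same 18 in all barcodes.

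Signalling groups were mixed. Of 27 genes of insulin, IGF and growth signalling 7 were higher and 2 lower (median 0.08), and 5 of the 7 were IGF-binding proteins, led by Igfbp4 (23.3 and 52.4 CPM in young and aged sham, 1.31), Igfbp6 (1.17) and Igfbp3 (1.02). Grb14 (157 and 89.6 CPM, −0.67) and Rptor (−0.65) were lower. Of 25 hypoxia-inducible genes 4 were higher and 3 lower (median 0.28), with the collagen cross-linker Lox (2.28 and 4.93 CPM, 1.25) and Vegfa at the ends. Of 25 immediate early genes 6 were higher and 1 lower (median 0.30), with Nr4a3 (1.16 and 2.59 CPM, 1.29), Maff (1.20) and Jun (67.4 and 40.8 CPM, −0.59). Of 25 glucocorticoid receptor targets 4 were higher and 2 lower (median 0.09), with Sgk1 (39.1 and 56.9 CPM, 0.68) and Zbtb16 (−0.60). Of 24 circadian clock genes 2 were higher, Tspan4 (1.03) and Cry1 (0.60), and 2 lower, Hlf (26.0 and 13.7 CPM, −0.79) and Per3 (60.8 and 33.5 CPM, −0.72), with a median of −0.09.

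By number of higher genes, the ribosome, the list with the most measured genes, came first among the 63 lists. MHC class II had a higher share, with 8 of 10. Of 79 genes of cytosolic ribosomal proteins 54 were higher and 0 lower, all 79 lay above the median gene, and the median ratio was 0.66. Rps27a had 260 and 489 CPM in young and aged sham (1.05) and Rpl3 78.6 and 145 CPM (1.02). Of 75 mitochondrial ribosomal proteins 0 were higher and 1 was lower, Mrps5 (75.7 and 30.8 CPM, −1.16; median 0.09). In I/R the cytosolic group had a median of −0.53, with 36 of 79 genes lower (background 14.0%). Among sham barcodes with 3 to 6% Malat1 the count of higher ribosomal genes was 5 of 79, that of the mitochondrial genome 1 of 13, that of the lysosome 3 of 29 and that of the S100 group 7 of 24, with medians of 0.25, 0.22, 0.28 and 0.44. Of the same 29 lysosome genes 15 were higher in all barcodes.

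**Figure D3:**
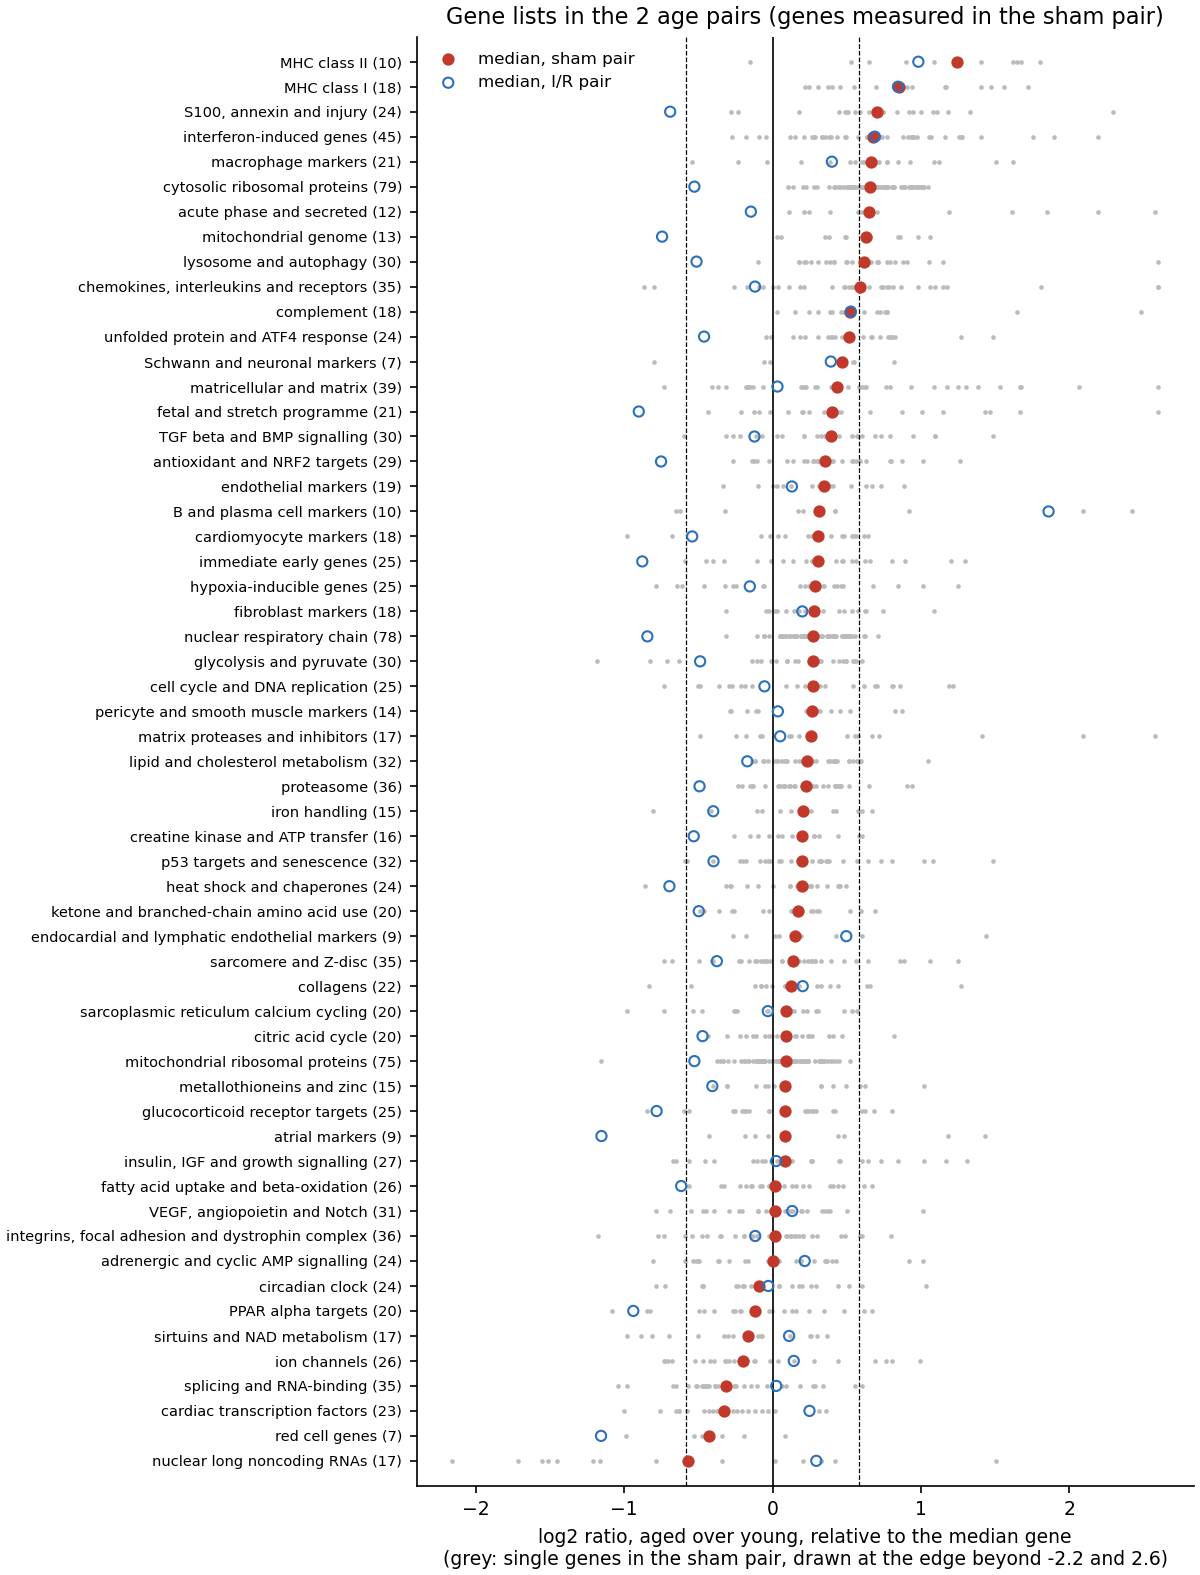
Median log2 ratio of aged over young, relative to the median gene, for each gene list with 5 or more measured genes (number in brackets), in the sham pair (red) and the I/R pair (open blue), with single genes of the sham pair in grey and dashed lines at 1.5-fold. MHC class II (1.25 in sham, 0.98 in I/R), MHC class I and interferon-induced genes lie to the right in both pairs, whereas the ribosomal, mitochondrial genome, lysosome and S100 medians lie right of 0 in sham and left of 0 in I/R.

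Of the 1392 genes lower in aged sham 1024 were protein-coding, and nuclear noncoding RNAs were lower in a higher share. Of 17 nuclear long noncoding RNAs 1 was higher and 8 were lower, with a median ratio of −0.57. Malat1 had 73436 CPM in young and 28796 CPM in aged sham (−1.21), Kcnq1ot1, an imprinted RNA antisense to Kcnq1, 460 and 147 CPM (−1.51) and Carmn, a precursor of microRNAs in heart and smooth muscle, 24.7 and 6.84 CPM (−1.71). A set of 3 neighbouring RNAs of an imprinted region of chromosome 12 were lower together, Meg3 (168 and 68.0 CPM, −1.16), Rian (34.2 and 11.4 CPM, −1.45) and Mirg (4.30 and 1.33 CPM, −1.55). Neat1, the RNA of paraspeckles, had 3024 and 2778 CPM (0.02), and Snhg11 was higher (5.77 and 14.9 CPM, 1.51). Of 35 splicing and RNA-binding genes 1 was higher and 4 lower (median −0.31), with Rbm24, a splicing factor of muscle (303 and 134 CPM, −1.04), the helicase Ddx5 (1398 and 644 CPM, −0.98) and Son (1121 and 640 CPM, −0.67) among the lower. Among barcodes with 3 to 6% Malat1 0 of 34 splicing genes and 5 of 14 nuclear noncoding RNAs were lower. Of the same genes 4 and 6 were lower in all barcodes.

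The lowest ratios among abundant genes belonged mostly to RNAs that overlap other genes. Gm26672, which lies antisense to the clustered protocadherins Pcdhg, had 20.2 and 2.25 CPM in young and aged sham (−3.03), Gm29237, antisense to Sptbn1, 30.3 and 5.61 CPM (−2.29), and D830024N08Rik, antisense to Tecr, 120 and 32.4 CPM (−1.76). Gm47644 (99.0 and 23.5 CPM, −1.94) lies in an intron of Cep85l and antisense to Pln, BC002189 (37.7 and 9.16 CPM, −1.90) in Trim55 and 4632404M16Rik (51.8 and 15.1 CPM, −1.64) in Casq2. Pln and Casq2 themselves had ratios of 0.09 and 0.57, whereas Trim55 was lower, as BC002189 was, with −1.10 (I/R 1.35). Of the genes with a protein product at this end, Myo5c had 29.3 and 8.0035 CPM (−1.73), the growth factor Egf 25.2 and 7.30 CPM (−1.65) and Leng9 21.1 and 5.97 CPM (−1.68). In the I/R pair each of these RNAs had a ratio above 0.

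By gene type, as given in GENCODE release 21, the median ratio was 0.02 over 12129 protein-coding genes and −0.35 over 233 lincRNAs, −0.55 over 215 antisense genes, −0.56 over 160 processed transcripts and −0.83 over 102 sense-intronic genes. Of the sense-intronic genes 75.5% were lower and 0.98% higher, and of the antisense genes 47.9% and 6.05%. Among nuclear protein-coding genes the ratio followed the length of the exons, with a median of 0.35 over 696 genes under 1.5 kb, 0.22 over 2390 genes of 1.5 to 3 kb, 0.06 over 4852 genes of 3 to 6 kb and −0.18 over 4178 genes above 6 kb. The I/R pair had each of these medians on the other side of 0. Level made less difference, with medians between −0.01 and 0.10 in 4 classes of mean CPM. Among sham barcodes with 3 to 6% Malat1, 13 of 42 sense-intronic genes were lower, against 28 of the same 42 in all barcodes.

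**Figure D4:**
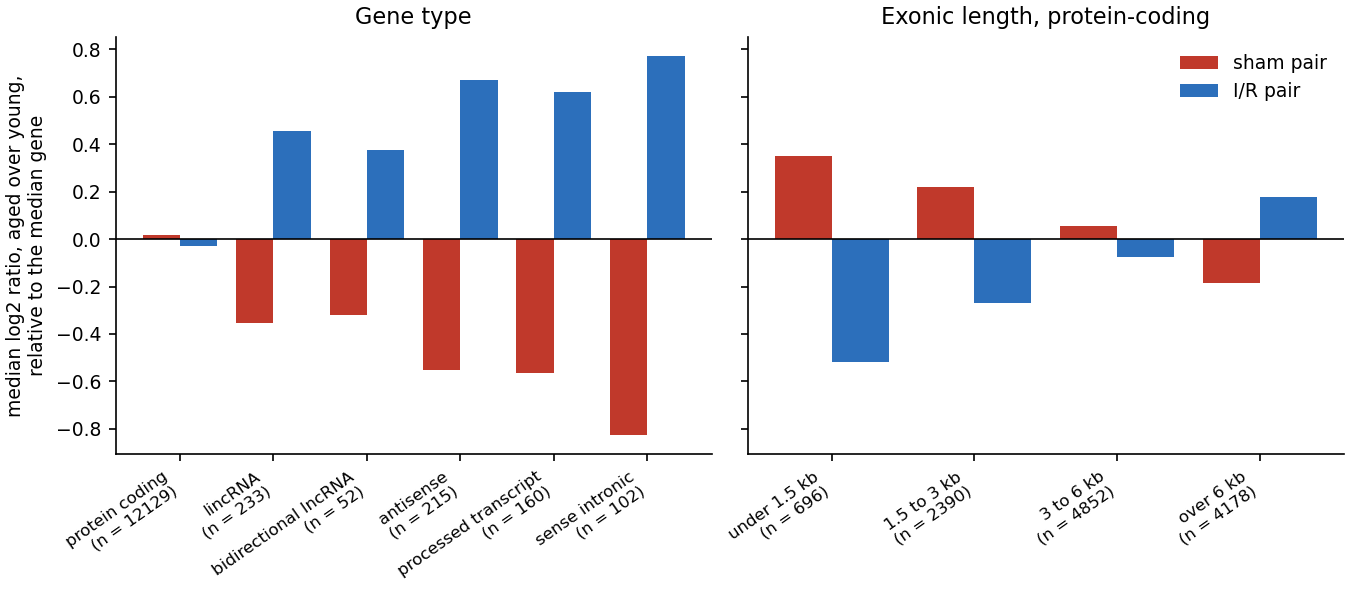
Bars give the median log2 ratio of aged over young, relative to the median gene, by gene type (left) and by exonic length of protein-coding genes (right), for the sham pair (red) and the I/R pair (blue), with the number of genes under each. Noncoding types and long genes lie below 0 in the sham pair (sense-intronic −0.83) and above 0 in the I/R pair (0.77), and short genes the reverse.

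The I/R libraries form a second age pair that shares no library with the sham pair. Of 13434 genes measured there, 2203 (16.4%) were higher and 1883 (14.0%) lower in aged I/R. Of the 1260 genes higher in aged sham and measured in both pairs, 210 (16.7%) were higher and 385 (30.6%) lower in aged I/R, against 15.4% and 13.8% of all 12811 genes measured in both. Of the 1364 genes lower in aged sham, 28 (2.05%) were lower and 632 (46.3%) higher. Over the 12811 genes, which are not independent of each other, the ratios of both pairs had a Pearson r of −0.32. The genes past 1.5-fold in the same direction in both pairs included Myh7, Comp, Ccl8, Cfb and C4b on the higher side and Pdk4, Angptl4, Ucp3, Hsph1, Meg3, Mirg and Hbb-bt on the lower side.

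**Figure D5:**
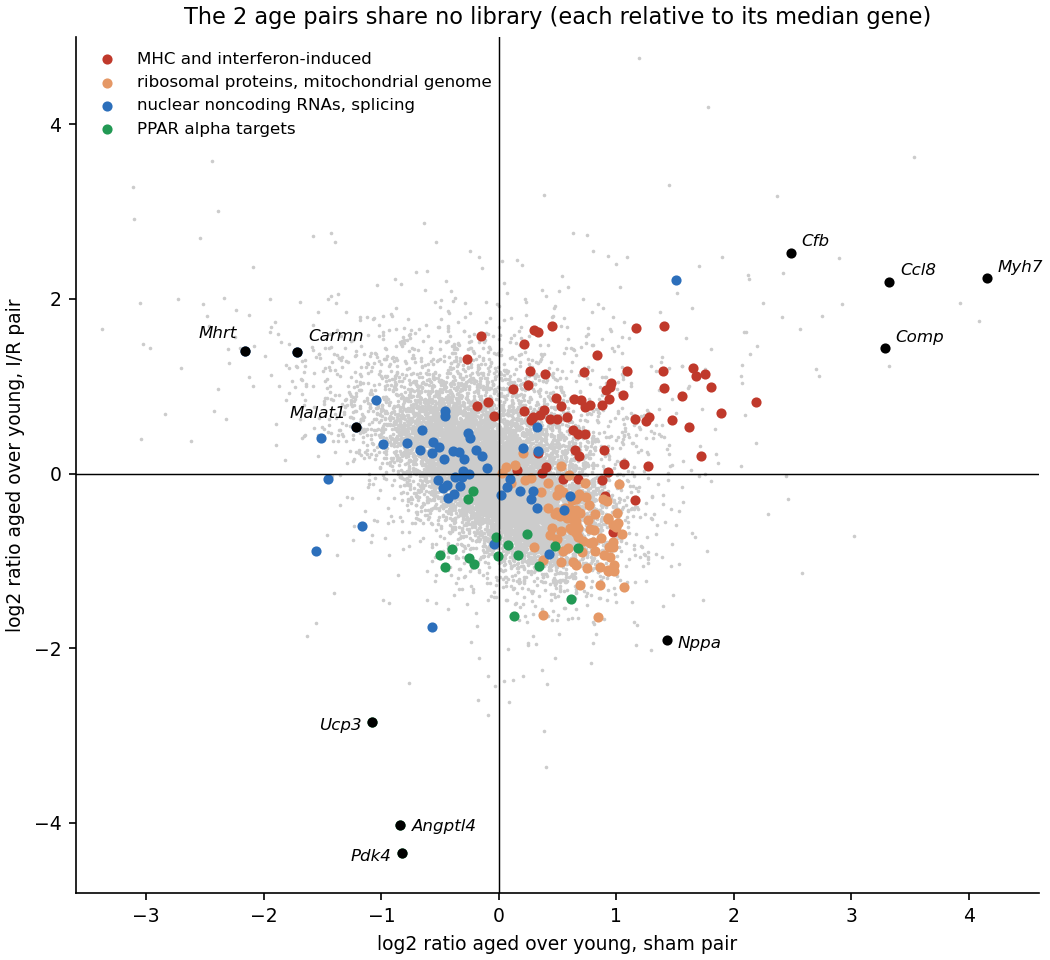
Each point is 1 gene measured in both pairs, with its log2 ratio of aged over young relative to the median gene in sham (x) and in I/R (y); 6 genes lie outside the axes. MHC and interferon-induced genes (red) lie mostly right of and above 0, ribosomal and mitochondrial genome genes (orange) right of and below 0, and Pdk4, Angptl4 and Ucp3 at the lower left.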

How the data were processed

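The left ventricles of male wild-type mice were profiled as 4 droplet libraries, 1 for each age and operation, taken from the sample labels. The authors deposited UMI counts per gene and barcode made with Cell Ranger 6.0.2 on mm10 (per the labels); whether introns and strand were used is not given in the sources used here. The barcodes are those the authors deposited, without doublet removal or further filter; whether each held a cell or some were empty droplets was not tested. Members and gene lists were chosen with earlier results of these data known, and partly taken over from that work.

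The counts were summed per gene and library, scaled to CPM, and compared as log2 ratios relative to the median of the genes with 100 or more UMIs over the pair (Python 3.11.15, numpy 2.4.6, scipy 1.17.1, pandas 2.3.3, matplotlib 3.10.9). Genes past 1.5-fold were counted as higher or lower. With 1 library per group no test was made. Intervals are exact conditional (Clopper-Pearson) 95% intervals of the UMIs. Library totals of 25836175 (young) and 41356670 (aged) UMIs gave intervals with a median width of 0.175 to either side in the sham pair. The procedure was tested on simulated data.

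Named genes were the 15 highest and 15 lowest ratios among genes with 100 or more UMIs and at least 20 CPM in either sham library, up to 6 members past 1.5-fold in each of 63 lists, members that define a list where they did not pass, and cell type markers. Gene types and overlaps came from GENCODE release 21 (32235 of 32285 identifiers matched), and promoter windows from RefSeq GRCm38.p6.

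Alternatives were scaling by total UMIs or by TMM (edgeR 4.0.16 in R 4.3.3, factors only), limits of 20 or 1000 UMIs, and subsets of barcodes by depth, by genes detected or by cardiomyocyte marker UMIs. Barcodes with 3 to 6% Malat1 and those with 3 or more UMIs of fibroblast or of endothelial markers were chosen as subsets after seeing the data. Some members of the lists are not reported here by name.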

Additional observations from a re-analysis of the deposited data

Results flagged for a closer look

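Values that lay past 1.5-fold in opposite directions in both age pairs are given here as the relative log2 ratio of aged over young in sham and then in I/R. With 1 library per condition the difference between the pairs was not tested for any of them. Such reversals were common among all genes measured in both pairs. Of those higher in aged sham 30.6% were lower in aged I/R, and of those lower in aged sham 46.3% were higher. The counts below can be read against these shares. Among the gene lists, the median of the mitochondrial genome was 0.63 in sham and −0.74 in I/R, and that of the S100, annexin and injury genes was 0.70 and −0.69. Of the leading higher genes, Ccn2 had 1.67 and −0.73.

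Of the leading lower genes, 13 were past 1.5-fold in the opposite direction in I/R. Those antisense to other genes were Gm26672 (−3.03 and 1.48), Gm29237 (−2.29 and 1.26), Mhrt (−2.16 and 1.40), D830024N08Rik (−1.76 and 1.06) and 4732440D04Rik (−1.65 and 1.23). Those inside introns were Gm47644 (−1.94 and 1.67), BC002189 (−1.90 and 1.73), Gm42941 (−1.69 and 0.62) and 4632404M16Rik (−1.64 and 1.003). The others were Carmn (−1.71 and 1.40), BB218582 (−1.58 and 1.41), Myo5c (−1.73 and 0.99) and Leng9 (−1.68 and 1.08). The share of UMIs from Malat1, higher in young than in aged sham and lower in young than in aged I/R, moved with these RNAs, and its part in their values was not tested.

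The same held for 57 of the other genes named in the report, of which 15 were lower and 42 higher in aged sham. In sham, 209 named genes were past 1.5-fold. The ratio in sham is again given first and that in I/R second. Among genes of the muscle cell, the stretch-responsive Nppa (1.43 and −1.90), Nppb (1.47 and −1.06), Rcan1 (1.15 and −1.70) and Fhl1 (0.66 and −1.32) and the sarcomere genes Tcap (0.86 and −0.68) and Synpo2l (0.89 and −1.18) were higher in aged sham and lower in aged I/R. The muscle genes Sgcd (−1.18 and 0.59), Trim55 (−1.10 and 1.35), Rbm24 (−1.04 and 0.84) and Adra1a (−0.81 and 1.10) had the reverse order. In metabolism, Fabp3 (0.62 and −1.43), Cd36 (0.67 and −0.85), Fasn (0.59 and −0.99), Cox4i1 (0.71 and −0.83), mt-Co1 (0.98 and −1.12), mt-Co3 (1.06 and −1.29), Gpx3 (1.26 and −0.72) and Asns (1.27 and −0.98) were on the higher side in sham and Nnt (−0.81 and 1.4998), Ppargc1b (−0.76 and 0.63), Pfkfb2 (−0.71 and 1.61), Steap3 (−0.81 and 0.66) and Grb14 (−0.67 and 0.59) on the lower side. Of matrix, growth factor and fibroblast genes, Timp1 (2.58 and −1.14), Thbs1 (1.53 and −1.03), Lox (1.249 and −1.23), Gdf15 (1.48 and −1.39), Inhbb (1.09 and −1.24), Id2 (1.10 and −0.61), Mfap5 (0.63 and −0.78) and Gsn (0.74 and −0.59) were higher in sham, and Col6a6 (−0.84 and 2.17) and Smad7 (−0.59 and 0.78) were lower. Of vessel, immune and injury genes, Cldn5 (0.63 and −1.20), Esam (0.73 and −1.11), Ly6c1 (0.89 and −0.82), Fcer1g (1.504 and −0.59), Ccl19 (1.18 and −1.74), S100a8 (1.08 and −0.80), S100a6 (1.11 and −0.68), S100a4 (1.33 and −0.70), Lcn2 (0.60 and −0.89), Cd63 (1.15 and −0.87) and Ctsb (0.88 and −0.77) were higher in sham, and Ackr4 (−0.87 and 0.78) and Bank1 (−0.63 and 2.10) were lower. The remaining higher genes were Cdkn1a (0.81 and −1.94), E2f1 (1.21 and −0.83), Nr4a3 (1.29 and −2.02), Maff (1.20 and −0.95), Sgk1 (0.68 and −0.74), Cry1 (0.60 and −0.65), Tspan4 (1.03 and −1.22), Slc30a4 (1.02 and −0.84) and Rps27a (1.05 and −0.69), and the remaining lower ones Per3 (−0.72 and 1.43) and Kdm5d (−0.67 and 0.66).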

How the results depend on the processing

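No paired analysis was possible because each group was 1 library, and for the same reason no replicate was left out. Against 1275 higher (9.88%) and 1392 lower (10.8%) of 12901 genes, scaling by total UMIs gave 789 and 2179 of the same genes. A limit of 20 UMIs gave 2054 and 2186 of 15875 (12.9% and 13.8%), and a limit of 1000 UMIs 539 and 601 of 6941 (7.8% and 8.7%). Barcodes rich in cardiomyocyte markers gave 715 and 729 of 5052 genes (14.15% and 14.43%), and those with 3 to 6% Malat1 613 and 387 of 10565 (5.80% and 3.66%). Those with 3 or more UMIs of fibroblast markers gave 669 and 645 of 5654 (11.8% and 11.4%). For endothelial markers it was 828 and 764 of 8055 (10.3% and 9.5%). The shallow barcodes gave 901 lower genes of 10750 (8.38%). Fewer genes pass the UMI limit in a subset, which by itself lowers a count. TMM scaling gave 1307 and 1357 genes. Of the genes that could be measured in the Malat1 subset, 42.3% of the higher and 26.4% of the lower ones were still past 1.5-fold, and 99.9% and 92.7% kept their direction.

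Over the alternatives, 81 medians of lists moved by more than 0.2 and 633 did not. Scaling by total UMIs or by TMM shifts all ratios alike by less than 0.2, so it could not move a median past that limit. The median of the list named matricellular and matrix, 0.44 in all barcodes, was −0.08 among barcodes with fibroblast markers, and the cause was not tested. The genes measured in these barcodes, where the markers themselves were left out, were not the same. Of the 209 named genes past 1.5-fold, all that could be measured kept their direction in every alternative except Smad7. It had a ratio of 0.0745 in barcodes rich in cardiomyocyte markers, and the cause was not tested. Scaling by total UMIs or by TMM and the limits of 20 or 1000 UMIs shift all ratios alike. The shift was too small to turn a ratio past 1.5-fold, so these settings could not change a direction. The subsets of barcodes are parts of the same libraries. With total UMIs 189 of the 209 were still past 1.5-fold, and with TMM 207. Of those measured, 113 of 176 were with 3 to 6% Malat1 and 155 of 185 in shallow barcodes. It was 87 of 108 with fibroblast, 131 of 150 with endothelial markers and 98 of 107 in barcodes rich in cardiomyocyte markers. Over the alternatives, 1387 values of single named genes lay within the gene's counting interval in all barcodes, 1056 outside it, and 1 was reversed. Counting intervals cover the depth of these libraries and not the spread between animals, which 1 library per group cannot give.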

Other observations

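Of the 210 genes higher in aged than in young in both pairs, a few are given here, 3 of them from 22 or fewer UMIs in each young library. They were chosen after their values were seen. Cd163l1, a scavenger receptor of γδ T cells, had 1 UMI in young sham and 10 in young I/R, against 224 and 268 in the aged libraries, with a relative log2 ratio of 7.27 (4.77 to 12.6) in sham and 3.57 in I/R. Kcnk1, a potassium channel, had 1 and 22 UMIs in the young and 118 and 234 in the aged libraries, with ratios of 6.34 (3.84 to 11.7) and 2.23. AC168977.1 had 3 and 8 against 196 and 279 UMIs (5.49, 3.92 to 7.78, and 3.95), and Csprs, less near 0, 29 and 26 against 489 and 726 UMIs (3.53 and 3.63). The kinase Prkcq had 3.29 CPM in young and 12.985 CPM in aged sham (2.12) and a ratio of 2.27 in I/R. Efemp1, a matrix glycoprotein, had 2.06 and 1.11.

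On the other side, the ubiquitin ligase gene Trim7 had 120 CPM in young and 42.0 CPM in aged sham (−1.37) and was lower in I/R as well (−0.93).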
